A study of Homo sapiens with 16 samples.

Results

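The genes described here are plakoglobin (JUP) and the core of Wnt signalling, followed through induction of the leukaemia fusion AML1-ETO in U937 cells. The members were all probe sets whose platform gene symbol was JUP, CTNNB1, CTNNA1, APC, AXIN1, GSK3B, TCF7, TCF7L2, LEF1 or WNT10B. A probe set is the group of array probes that reports 1 transcript. The annotation used here gave 18 such probe sets of 12626 on the array, for 9 of the 10 genes, and TCF7 was not analysed here.

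U937 is a human monocytic leukaemia line, and every culture in the series carried the AML1-ETO construct behind a tetracycline promoter. AML1-ETO fuses the runt domain of RUNX1, which binds DNA, to most of RUNX1T1 and is found in acute myeloid leukaemia. Induced cells were taken at 12, 24, 48 and 72 h. Control cells came from 0, 24, 48 and 72 h, and each of these 8 groups held 2 arrays, 16 in all. The labels also speak of 12 h controls, which were not analysed here. They do not name the agent that switched the promoter, and do not say whether the line is 1 clone or whether replicates were separate cultures, so the p-values measure a spread that may be technical.

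JUP and beta-catenin (CTNNB1) are related armadillo-repeat proteins that link cadherins, through alpha-catenin (CTNNA1), to the actin cytoskeleton, and JUP is also a part of desmosomes. When no Wnt ligand is bound at the cell surface, a complex of AXIN1, APC and GSK3B marks beta-catenin for destruction. When a Wnt ligand binds, beta-catenin accumulates and acts in the nucleus with TCF7, TCF7L2 and LEF1. In blood, this pathway is known for its part in the self-renewal of stem cells and of myeloid leukaemia cells, and JUP has been described as a target of the AML1-ETO fusion in such cells.

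The sequences before the starts of JUP and CTNNA1, the members with the largest rises below, are shown from RefSeq (GRCh38.p14), 250 bases each, 5′ to 3′ on the strand of the gene. Capitals mark TGTGGT, the core letters bound by RUNX proteins, and CTTTGA, the core letters bound by TCF and LEF proteins, searched on both strands (ACCACA and TCAAAG on the other).
JUP, chr17:41786712-41786961, minus strand: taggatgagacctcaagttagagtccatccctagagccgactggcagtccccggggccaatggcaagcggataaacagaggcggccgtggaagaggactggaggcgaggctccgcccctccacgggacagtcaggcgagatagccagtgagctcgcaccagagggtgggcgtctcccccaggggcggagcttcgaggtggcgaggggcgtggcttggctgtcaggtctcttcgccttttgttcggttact
JUP, chr17:41785977-41786226, minus strand: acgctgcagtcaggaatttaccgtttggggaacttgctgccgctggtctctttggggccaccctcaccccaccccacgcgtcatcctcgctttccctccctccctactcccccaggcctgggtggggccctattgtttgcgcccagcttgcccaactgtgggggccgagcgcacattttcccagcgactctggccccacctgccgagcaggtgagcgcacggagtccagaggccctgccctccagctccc
CTNNA1, chr5:138875150-138875399, plus strand: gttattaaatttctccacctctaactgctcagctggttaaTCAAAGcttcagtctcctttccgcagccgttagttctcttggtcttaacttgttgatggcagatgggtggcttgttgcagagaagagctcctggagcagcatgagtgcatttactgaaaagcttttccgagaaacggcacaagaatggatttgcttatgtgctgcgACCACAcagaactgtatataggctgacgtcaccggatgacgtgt
Both JUP windows held neither motif. The CTNNA1 window, 1 of 4 listed for this gene, held TGTGGT starting 44 bases and CTTTGA starting 210 bases before the transcript start, both on the other strand. Its neighbour, which overlaps it, held the same CTTTGA match and a second one 232 bases before its own start, and the other 2 held none. Among all 17 windows of the 9 members listed there, 2 held TGTGGT, the other one being that of LEF1, and 2 held CTTTGA. Of 35116 windows of the same length over all genes, 11% held TGTGGT and 11.2% held CTTTGA. A match is a description of letters, and its absence in these 250 bases says nothing of binding elsewhere.

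The deposited values are linear intensities that can be negative. Array medians lay between 220.3 and 337.5, and 22.6% to 33.9% of an array's values were below 0. For tests, values under a floor of 135.61 were set to it and log2 was taken, and 7824 probe sets were tested with limma. A difference counted as called where its adjusted p over all of these was under 0.05. The labels were checked with the 1 tested probe set of RUNX1T1, which supplies the ETO portion of the fusion. It read 8649.6 and 3974.4 in induced cells at 48 h and 10603.3 and 8355.2 at 72 h, against at most 91.4 on all control arrays. In induced cells it read -116.5 and 86.1 at 12 h, and 1592.1 and -47.5 at 24 h. This probe set passed the filter on low values through induced arrays alone, so its readings describe the labels and are no test. The other RUNX1T1 probe sets were not tested and showed no such step. They read at most 206.8 on induced arrays and at most 351.5 on control arrays. Of 12 probe sets for monocytic markers, 6 exceeded the floor on all arrays, those of LYZ, FCER1G, ITGB2 and CD4, while those of CSF1R and ITGAM were at or under it on all 16 arrays. Of the 10 tested, 2 for CD4 rose and that of ITGB2 fell 2.83-fold on average over 24, 48 and 72 h. These counts are near the shares of all tested probe sets, 18.5% called higher and 13.4% lower. The third CD4 probe set was not called. The part of these markers in the results below was not tested. Of 19 probe sets for epithelial markers, 6 were at or under the floor on all arrays, among them those of the keratins KRT5 and KRT18. Another 2, of KRT8 and MUC1, exceeded it on all, and the rest did so on some, such as a CDH1 probe set on 11. Of 16 for lymphoid markers, 4 were at or under the floor on all arrays, and 2, of CD3E and CD7, exceeded it on all.

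Averaged over 24, 48 and 72 h, 7 of 15 tested member probe sets were higher in induced cells and 1 was lower, with 7 not called. Among all tested probe sets 18.5% were called higher and 13.4% lower, so that 58.1% of calls were higher. That split depended on scaling, with 44.8% of calls higher after median centring and 70.8% with the authors' scale factor undone, and the median of all probe sets was log2 0.10, -0.03 and 0.24 in these 3 settings. These 15 probe sets belong to 7 genes, of which JUP, CTNNB1 and CTNNA1 rose and WNT10B fell, and 5 of the 7 rises are CTNNA1 probe sets, which report 1 gene. The members had a median log2 difference of 0.45, against 0.10 over all tested probe sets. At 24 h, 0 of 15 were called, with 2 at an unadjusted p under 0.05, beside a background of 0% called and 397 of 7824 at an unadjusted p under 0.05. At 48 h, 5 were called, all higher, beside 10.5% of all probe sets called higher. At 72 h, 6 were called, all higher, beside 16.1%. These calls belong to 2 genes at 48 h and 3 at 72 h, and 4 of them at each hour are CTNNA1 probe sets.

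**Figure D1:**
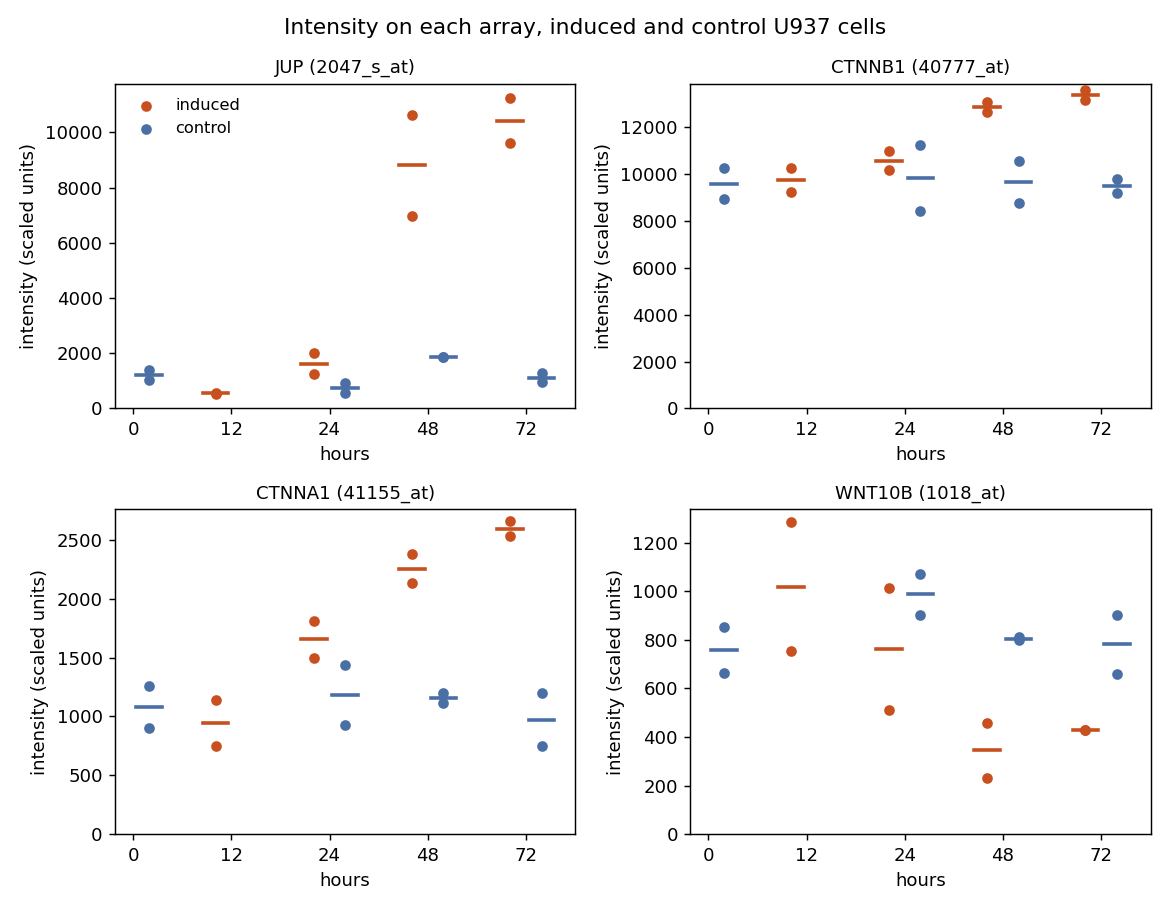
Intensity (scaled units, linear axis from 0) of JUP, CTNNB1, the brightest CTNNA1 probe set and the dimmer WNT10B probe set on every array by hour, with induced cells left of control cells at each hour. Points are arrays and bars are means of 2. On these probe sets JUP, CTNNB1 and CTNNA1 lay above every control array in induced cells at 48 and 72 h, and WNT10B below every control array. Of all tested probe sets, 14.4% lay above and 11.1% below in this way.

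JUP gave the largest difference of the members on average and at 48 and 72 h. At 24 h the dimmer GSK3B probe set had a larger one (log2 1.19, SE 0.80, against 1.15, SE 0.30, for JUP), and neither was called. On that GSK3B probe set 1 of the 2 control arrays of 24 h was under the floor (106.2), so its difference depends on the floor. In induced cells the JUP probe set read 1239.7 and 1993.6 at 24 h, 10643.9 and 6966.1 at 48 h, and 11227.9 and 9617.9 at 72 h. Control cells gave 556.6 and 905.9 at 24 h, 1873.3 and 1882.3 at 48 h, and 960.2 and 1270 at 72 h. Induced arrays lay above the control arrays of their own hour at all 3 hours, as did 20.5%, 35.8% and 38.8% of all probe sets at 24, 48 and 72 h. Those of 48 and 72 h lay above all 8 control arrays, which held for 14.4% of all probe sets. As group means these were 8805 ± 2601 (SD, n = 2) in induced cells and 1878 ± 6.39 (SD, n = 2) in controls at 48 h. At 72 h they were 10423 ± 1138 in induced cells and 1115 ± 219.1 in controls (SD, n = 2 each).

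The fitted average rise of JUP was 4.57-fold (log2 2.19, SE 0.18, adjusted p = 1.09e-06). By hour the fold was 4.59 at 48 h (log2 2.20, SE 0.30, adjusted p = 0.000263) and 9.41 at 72 h (log2 3.23, SE 0.30, adjusted p = 5.1e-06). At 24 h the log2 difference of 1.15 (SE 0.30) did not pass the test (adjusted p = 0.69). Ranked from the highest log2 difference, JUP stood 166th of 7824 probe sets at 24 h, 139th at 48 h and 60th at 72 h. Because a culture is measured as a whole, more JUP per cell and more cells with JUP cannot be told apart.

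The JUP effect differed between the 3 hours (F test, adjusted p = 0.0173), and 10.9% of all probe sets were called by this test. It was larger at 72 h than at 24 h by log2 2.09 (SE 0.43, adjusted p = 0.00538), a difference called in the same direction for 5.96% of probe sets. The step of log2 1.05 between 24 and 48 h was not called (adjusted p = 0.215, beside 4.88% of probe sets called), nor was that of log2 1.04 between 48 and 72 h (adjusted p = 0.429, beside 0.486%). The F test call ended when any 1 of 4 arrays was left out (induced 24 h replicate 1, induced 72 h replicate 1, control 24 h replicate 2 or control 72 h replicate 1), with adjusted p-values of 0.0735, 0.0653, 0.065 and 0.0703. It also ended with no filter on low values (adjusted p = 0.0673) and with the authors' scale factor undone (adjusted p = 0.267). At 24 h the array with the higher JUP value (1993.6) was replicate 2, on which RUNX1T1 read -47.5, while replicate 1 read 1239.7 for JUP and 1592.1 for RUNX1T1. The part of this in the 24 h result was not tested.

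Before 24 h, JUP was low in induced cells. It read 558.9 and 529.9 at 12 h, against 1038.8 and 1410.4 in control cells at 0 h, so both induced arrays lay below both control arrays, as in 31.6% of all probe sets. The log2 difference of -1.15 (SE 0.30) did not pass the test (adjusted p = 0.0569). In this comparison 0 of 15 members were called, beside 3.28% of all probe sets, and JUP was the 1 member with an unadjusted p under 0.05. No 12 h control was analysed here, so hour and induction cannot be told apart. All tested probe sets together had a median of log2 -0.15 here. The call was made under a stricter filter on low values (adjusted p = 0.0483), and without either of the control arrays of 24 h (adjusted p = 0.0415 and 0.0417).

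JUP also varied among control cells. Its 8 control arrays ranged from 556.6 to 1882.3, with group means of 1225 ± 262.7 at 0 h, 731.3 ± 247 at 24 h, 1878 ± 6.39 at 48 h and 1115 ± 219.1 at 72 h (SD, n = 2 each). The differences between these hours were not called (F test, adjusted p = 0.228), beside 0.192% of probe sets called. Set against control cells of 0 h only, the average rise in induced cells was log2 2.10 (SE 0.25, adjusted p = 8.93e-05), beside 17.5% of all probe sets called.

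**Figure D2:**
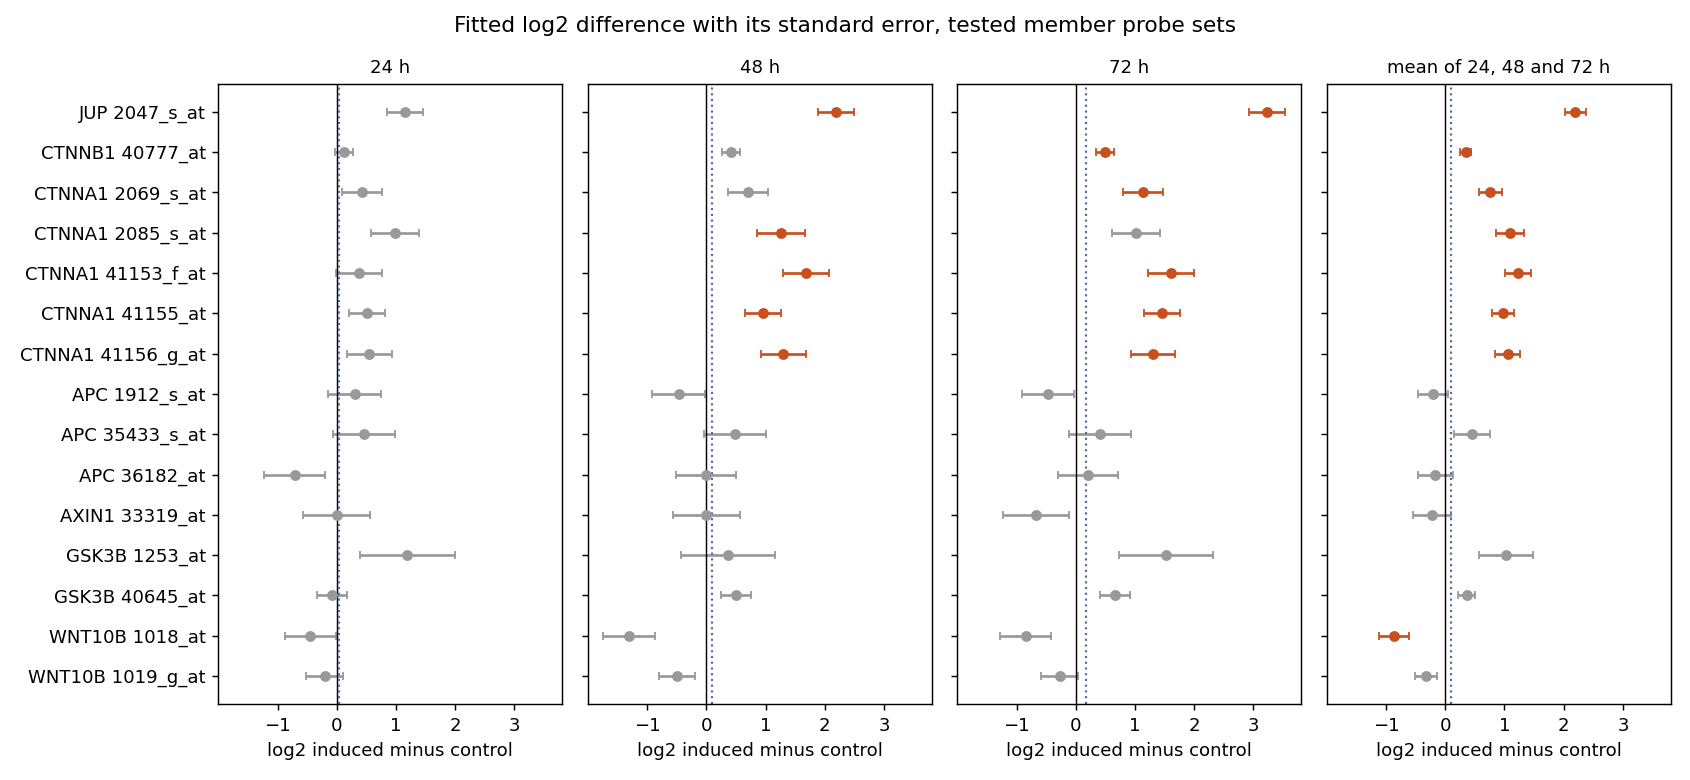
Fitted log2 difference, induced minus control, of the 15 tested member probe sets at 24, 48 and 72 h and as their mean, with standard errors. Filled orange points passed an adjusted p of 0.05 and grey points did not, the black line marks 0 and the dotted line the median of all 7824 tested probe sets (0.10 for the mean of the 3 hours). JUP and CTNNA1 stand to the right at 48 and 72 h and WNT10B to the left, where no WNT10B point was called at either hour. At 72 h AXIN1 (log2 -0.67) and an APC probe set (-0.47), also not called, lie farther left than the brighter WNT10B probe set (-0.27).

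CTNNB1, which encodes beta-catenin, changed much less. Its probe set read 10960 and 10160.9 in induced cells at 24 h, against 8426.5 and 11210.6 in controls. At 48 h the values were 12637 and 13051 in induced cells and 8769.5 and 10548.8 in controls. At 72 h they were 13162.8 and 13582 in induced cells and 9179.9 and 9763.5 in controls. The groups overlapped at 24 h, and the induced arrays of 48 and 72 h lay above all 8 control arrays, which held for 14.4% of all probe sets.

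The average rise of CTNNB1 was 1.27-fold (log2 0.34, SE 0.09, adjusted p = 0.00888). At 72 h it was 1.41-fold (log2 0.50, SE 0.15, adjusted p = 0.0254), and at 48 h the log2 difference of 0.42 was not called (adjusted p = 0.0769). The median of all tested probe sets was itself log2 0.18 at 72 h. After median centring the average difference of CTNNB1 was log2 0.21 and was not called (adjusted p = 0.0969), nor was that at 72 h (log2 0.32, adjusted p = 0.148). The call at 72 h also ended with the authors' scale factor undone (adjusted p = 0.194), with no mean-variance trend (adjusted p = 0.0839), and without any 1 of the 4 arrays of that hour (adjusted p = 0.0716 and 0.102 without the induced arrays, 0.122 and 0.0584 without the control arrays). Its call on average was also lost against control cells of 0 h (adjusted p = 0.073). Among control cells the 4 group means lay between 9472 and 9819.

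CTNNA1, which encodes the alpha-catenin that ties JUP or beta-catenin to actin, rose on 5 of its 6 probe sets, and the other was not tested. On the brightest of them induced cells read 1496.5 and 1812.4 at 24 h, 2380.3 and 2131.3 at 48 h, and 2529.3 and 2663.3 at 72 h. Control cells read 931.5 and 1438.2 at 24 h, 1200.1 and 1118.3 at 48 h, and 747.2 and 1197.6 at 72 h. All 6 induced arrays of these hours lay above all 6 control arrays, which held for 3.25% of all probe sets. The same was true of 1 other CTNNA1 probe set, which was designed from the same sequence record.

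The average effect on the 5 tested CTNNA1 probe sets ranged from 1.69-fold (log2 0.76, adjusted p = 0.00893) to 2.34-fold on the dimmest, whose name carries an f suffix (log2 1.23, SE 0.22, adjusted p = 0.000904), with a median log2 difference of 1.05. Against control cells of 0 h, 4 of the 5 were called, and the probe set of smallest effect was not (adjusted p = 0.0804). At 24 h the 5 log2 differences lay between 0.38 and 0.99 and none was called (lowest adjusted p = 0.929). At 48 h they lay between 0.71 and 1.68, and 4 were called. At 72 h they lay between 1.01 and 1.62, and 4 were called, of which 3 had also been called at 48 h. The exceptions both carry an s suffix, 1 at 48 h (adjusted p = 0.176) and the other at 72 h (adjusted p = 0.0783). With 1 of the 4 arrays of 48 h left out, 1 to 3 members were called at that hour, and 3 without either induced array of 72 h. At 72 h, 3 were called without induced 72 h replicate 1 or control 72 h replicate 1.

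**Figure D3:**
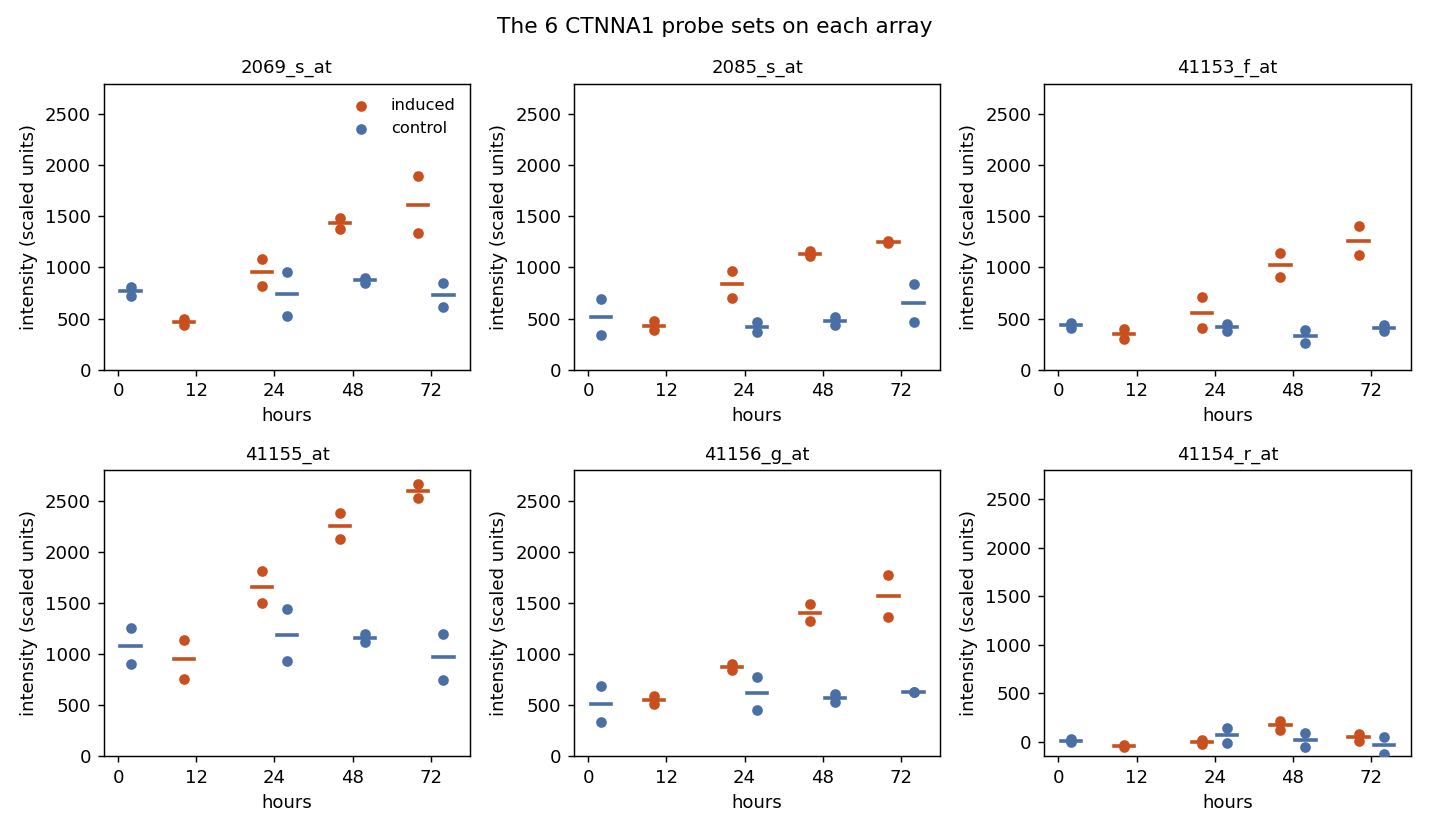
Intensity (scaled units, linear axes with 1 span for 5 panels and a lower end below 0) of the 6 CTNNA1 probe sets on each array by hour, with induced cells left of control cells. Points are arrays and bars are means of 2. In 5 panels the induced arrays of 48 and 72 h lie above all control arrays, as in 14.4% of all tested probe sets. The probe set with the r suffix stays between -122.2 and 218.1.

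The suffixes of these names record that the array's maker could not choose only unique probes for all of them: s marks probes shared by several transcripts and f those shared by a gene family. The untested probe set exceeded the floor on 2 of 16 arrays, at most reading 218.1. On 4 of the 5 tested CTNNA1 probe sets the fitted difference between 12 h induced and 0 h control cells was below 0, and on the fifth above 0 (log2 -0.72 to 0.18, lowest adjusted p = 0.247). The JUP probe set too carries the s suffix, so signal from a related transcript was not tested.

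Of the destruction complex, none of the members was called. GSK3B, the kinase that phosphorylates beta-catenin, was read by 2 probe sets made from 1 sequence record. On the brighter one, induced cells read 1487.7 and 1312.5 at 24 h, 1924.4 and 2032.9 at 48 h, and 1719.4 and 2143.3 at 72 h. Control cells read 1405.7 and 1555.7, 1442.8 and 1367.7, and 1237 and 1184 at the same hours. The groups overlapped at 24 h, and the induced arrays lay above both control arrays at 48 and 72 h, as did 35.8% and 38.8% of all probe sets. The average log2 difference was 0.36 (SE 0.15, adjusted p = 0.0779) on this probe set and 1.03 (SE 0.46, adjusted p = 0.106) on the dimmer one. On the dimmer one, replicate 1 of the controls read 106.2 at 24 h and 112.2 at 72 h, both under the floor. Without control 24 h replicate 2 its difference was log2 1.32, and without control 72 h replicate 2 log2 1.35. Each time the array under the floor was the only control left at that hour, so neither value adds support. With 24 h left out, an alternative added after the data were seen, the brighter one was called (log2 0.58, adjusted p = 0.021). At 24, 48 and 72 h the dimmer one had log2 differences of 1.19, 0.37 and 1.53, none of them called.

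APC, the scaffold of the complex, had 3 tested probe sets. Their average log2 differences were -0.21 (SE 0.26), 0.45 (SE 0.30) and -0.17 (SE 0.29), with adjusted p-values of 0.568, 0.29 and 0.696. The first 2 did not share a sign. In the same order their readings lay between 275.6 and 814.4, between 78.2 and 448, and between -130 and 373.1. The third was at or under the floor on 13 of 16 arrays. It passed the filter through 2 control arrays, 373.1 at 0 h and 364.7 at 24 h, so no direction can be read from it. AXIN1, the other scaffold, gave 1 tested probe set with readings above the floor on 2 of 16 arrays, 551.1 in induced cells at 12 h and 344.3 in control cells at 72 h, and below 0 on the other 14. It passed the filter through these 2 arrays, and no level of AXIN1 can be read from it.

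The nuclear partners were near or under the floor. LEF1, a high-mobility-group factor of lymphoid and progenitor cells that recruits beta-catenin to DNA, read between -426.5 and 108.2 and exceeded the floor on 0 of 16 arrays. TCF7L2, its relative, read 587.5 in induced cells at 72 h replicate 1 and at most 84.6 on the other 15 arrays. Both missed the filter and were not tested, which sets only a bound on their signal here.

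WNT10B, a secreted ligand of the canonical pathway that has been described as active in leukaemic stem cells, was the 1 member that fell. On its dimmer probe set, induced cells read 512.4 and 1013.1 at 24 h, 231.8 and 459.5 at 48 h, and 429.9 and 430.9 at 72 h. Control cells read 1071.3 and 904 at 24 h, 811.4 and 799.6 at 48 h, and 660.7 and 903.5 at 72 h. The groups overlapped at 24 h, and the induced arrays of 48 and 72 h lay below all 8 control arrays, which held for 11.1% of all probe sets. The average effect was 1.82-fold lower (log2 -0.87, SE 0.25, adjusted p = 0.0168), and the single hours were not called (adjusted p = 0.0508 at 48 h and 0.164 at 72 h). At 48 h it was called under 6 of 11 other settings, among them quantile normalization (adjusted p = 0.0186) and median centring (adjusted p = 0.0248).

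On the brighter probe set, designed from the same record, WNT10B read 1106.8 and 1697, 757.8 and 1298.7, and 890.3 and 1255.8 in induced cells at 24, 48 and 72 h. Control cells read 1451.2 and 1725.4, 1374.5 and 1420.6, and 1430.2 and 1135.1 at these hours. The groups overlapped at 24 and 72 h but not at 48 h, where 26.2% of all probe sets lay lower without overlap, and the average log2 difference of -0.32 (SE 0.18) was not called (adjusted p = 0.192). The call on the dimmer probe set ended without induced 24 h replicate 1 (adjusted p = 0.059) or induced 48 h replicate 1 (adjusted p = 0.052), with the authors' scale factor undone (adjusted p = 0.109) and against control cells of 0 h (adjusted p = 0.21).

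Other genes of the pathway were taken from 6 lists of 137 genes. Of these, 75 genes with 108 probe sets were tested, and 17 probe sets rose, 30 fell and 61 did not pass the test on average over the 3 hours. That is 43.5% called, beside 31.9% of all tested probe sets in either direction, and the median log2 difference was -0.06, against 0.10 over all. By direction, 18.5% of all tested probe sets were called higher and 13.4% lower, and the counts of each list below stand beside these shares. The lists were chosen with earlier results of these data known, so these counts are a description and no test of a list.

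**Figure D4:**
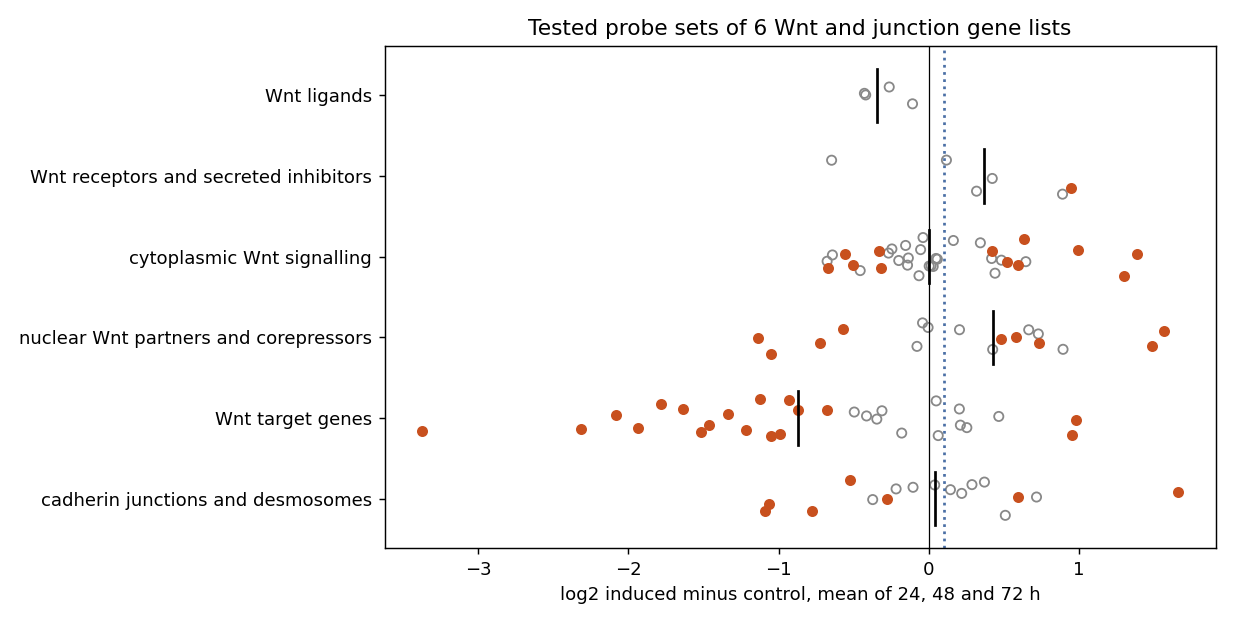
Log2 difference, induced minus control, as the mean of 24, 48 and 72 h, for each tested probe set of 6 gene lists. Filled orange points passed an adjusted p of 0.05 and open points did not, black ticks are list medians and the dotted line is the median of all tested probe sets (0.10). The target genes hold 16 of the 30 falls, and MYC lies farthest to the left.

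Of the ligands, 4 probe sets of WNT2B, WNT4, WNT6 and WNT11 were tested and 0 were called, with a median of log2 -0.34. Of 6 tested probe sets for receptors and secreted inhibitors, 1 rose and 0 fell (median log2 0.37), while 1 fell after quantile normalization, after median centring and under the stricter filter. The rise was that of the receptor gene FZD2 (1.93-fold, log2 0.95, SE 0.18, adjusted p = 0.00131). Over the arrays of 24, 48 and 72 h together it averaged 1809 ± 532.9 in induced cells and 932.9 ± 310 in controls (SD, n = 6 each). This SD holds differences between hours as well as between replicates. The other FZD2 probe set did not pass the test (log2 0.42, adjusted p = 0.235).

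In the cytoplasmic list 7 of 35 tested probe sets rose and 5 fell, with a median of log2 0.00. These counts are near the shares of all tested probe sets, 18.5% higher and 13.4% lower. FBXW11, an adaptor of the ubiquitin ligase that takes up phosphorylated beta-catenin, rose 2.46-fold (adjusted p = 0.000113). The count includes DAAM1, which works in the branch of Wnt signalling that does not use beta-catenin. It passed the filter on low values through induced arrays alone, with 4 of 8 over it and 0 of 8 control arrays, so its call supports nothing. CSNK1A1, the casein kinase that primes beta-catenin for GSK3B, rose 1.55-fold. CHD8, a chromatin factor that binds beta-catenin, rose 1.99-fold on 1 of 3 tested probe sets, and the other two were not called (adjusted p = 0.0549 and 0.302). FRAT2, an inhibitor of GSK3, fell 1.59-fold on 1 probe set (adjusted p = 0.000498) and was not called on the other (log2 -0.68, adjusted p = 0.182). CUL1, a scaffold of ubiquitin ligases, fell 1.42-fold on 1 probe set and was not called on the other (log2 -0.15, adjusted p = 0.287). CSNK1G2 fell on 2 of 3 probe sets, by 1.47-fold and 1.25-fold, and CSNK2B fell 1.26-fold. With the authors' scale factor undone, 0 probe sets of this list fell.

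Nuclear partners and corepressors gave 5 rises and 4 falls among 17 tested probe sets (median log2 0.43), beside 18.5% and 13.4% of all. EP300, an acetyltransferase that works with beta-catenin, rose 2.96-fold on 1 probe set (adjusted p = 0.000152). Its other probe set is in the count, but 0 of 8 control arrays exceeded the filter there, so its call supports nothing. Both probe sets of the deacetylase HDAC1 rose (log2 0.58 and 0.74). Both probe sets of the corepressor CTBP1 fell, 1.65-fold and 1.48-fold, and RUVBL1, a helicase-like partner of beta-catenin, fell 2.07-fold on 1 probe set and was not called on the other (log2 -0.08, adjusted p = 0.868). TLE2, a Groucho corepressor, fell with a fitted log2 value of -1.14 (adjusted p = 0.0324), with 4 induced arrays at the floor. With the authors' scale factor undone, 2 probe sets of this list fell.

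Among genes reported in other cells as Wnt targets, 16 of 29 tested probe sets fell and 2 rose, beside 13.4% and 18.5% of all. The median log2 difference was -0.87. All 4 probe sets of MYC, a regulator of cell growth, fell, with log2 differences between -3.37 and -1.93 (adjusted p at most 1.37e-06). The other falls were those of CD44, VEGFA, CCND1, CCND2, ID2 and PLAUR, which with MYC make 7 of 17 tested genes. On CCND1 a second probe set was not called (adjusted p = 0.187). These 6 lie outside the rule for named genes and are given to complete the count. The 2 calls of a rise were both probe sets of JUN, for which 1 and 0 of 8 control arrays exceeded the filter, so they support nothing, and under the stricter filter 0 probe sets of the list were called higher.

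Of 40 probe sets for cadherins, junction and desmosome proteins, 17 were tested, with 2 rises and 5 falls (median log2 0.04). Over all tested probe sets the shares were 18.5% higher and 13.4% lower. DSP, desmoplakin, which binds JUP in desmosomes, exceeded the floor on 1 of 16 arrays, and the desmosomal cadherins DSC1, DSG2, DSG3, DSC2 and DSC3 on 0, 1, 2, 2 and 5 arrays. The desmosomal cadherin DSG1 exceeded it on 14 arrays, with a median of 464.1, and was not called. The rises were those of the adhesion receptor NECTIN2 (fitted log2 1.66, adjusted p = 0.00504) and VCL, vinculin, which binds alpha-catenin (1.51-fold, adjusted p = 0.00105). CTNNAL1, an alpha-catenin relative, fell 2.09-fold as fitted, the actin crosslinker ACTN1 fell on both probe sets, 2.13-fold and 1.71-fold, and PKP4, a plakophilin, fell 1.44-fold. The fifth fall, that of ACTN4 (1.21-fold), lies outside the rule for named genes. With the authors' scale factor undone, 1 probe set of this list fell.

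Among 19 probe sets for epithelial markers, 9 were tested and 0 were called, so the rise of JUP and CTNNA1 was not accompanied by a called rise of that list. Summed over the list, with values below 0 set to 0, induced arrays of 24 to 72 h gave 5118 to 9914 and control arrays 6249 to 7829. The part of these markers in the rise of JUP and CTNNA1 was not tested.

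The 5 genes whose pattern over the 16 arrays was most like that of JUP were TRANK1, RAB13, IFI16, AHR and RTL8C, with Pearson's r on log2 values between 0.95 and 0.96. The arrays fall into induced cells of 48 and 72 h and the rest, so such an r mostly records that step. RAB13, a small GTPase of cell junctions, read 7793 and 5513.7 in induced cells at 48 h, against 2187.7 and 1593.6 in controls. IFI16, a sensor of DNA, read 3446.8 and 2700.4 in induced cells and 350.5 and 395.8 in controls at that hour. AHR, the aryl hydrocarbon receptor, read 1906.5 and 1191.9 in induced cells and 355.5 and 338.3 in controls at 48 h. In induced cells at 12 h all 5 lay below both control arrays of 0 h, as did JUP and 31.6% of all probe sets. The 5 were picked by likeness to JUP over arrays that include these, so this adds no support. Among the members, 1 CTNNA1 probe set with an s suffix came closest to JUP (r = 0.93, 38th of 7823), and CTNNB1 had r = 0.82.

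**Figure D5:**
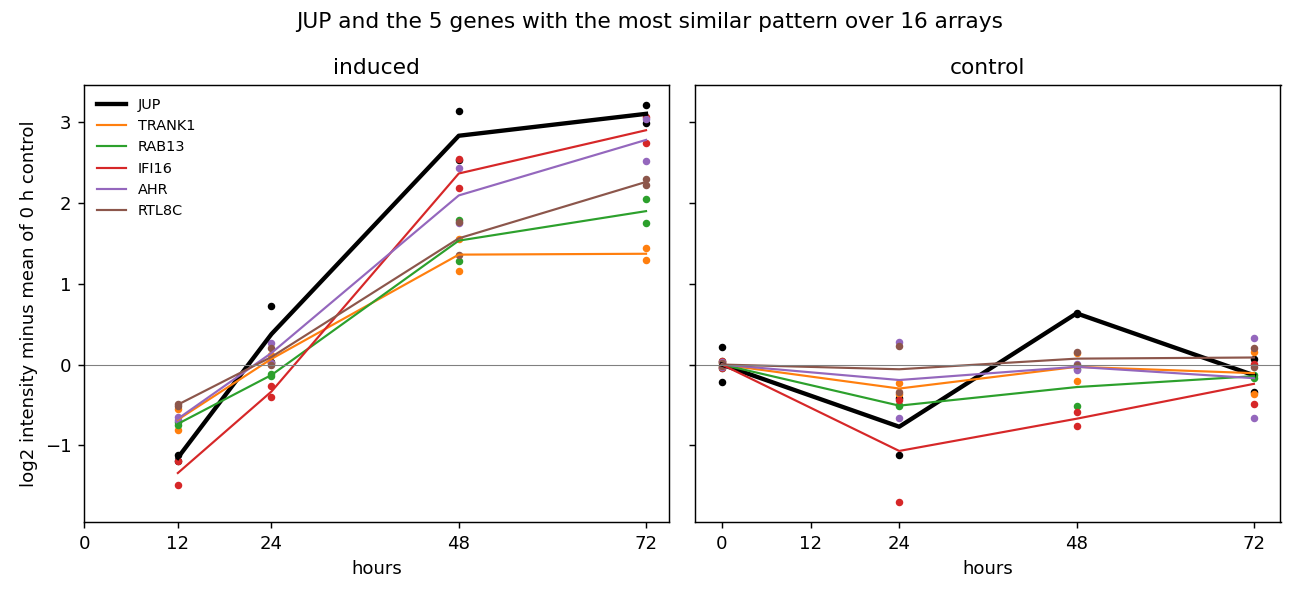
Log2 intensity relative to the mean of the 0 h control for JUP and the 5 genes most like it, in induced cells (left) and control cells (right) by hour. Lines join means of 2 arrays and dots are arrays. All 6 genes were low at 12 h and high at 48 and 72 h in induced cells, and the 5 were chosen by likeness to JUP over these same arrays.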

How the data were processed

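Total RNA from induced and control U937 cells was labelled and hybridised to Affymetrix U95Av2 arrays, per the labels. The deposited values are linear intensity values per probe set, scaled by the authors with 1 factor per array, and no label or header used here names the software that summarised the probes. All 16 arrays had a mean of 1370.9, and 25.8% of values were below 0. The number of arrays, 2 in a group, limits the precision.

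Values under the 40th percentile of all values (135.61) were set to it before log2. Tests took in probe sets with 2 or more arrays over the median (292.74), without the 67 control probe sets. Symbols came from the platform annotation and were updated through RefSeq, and only probe sets with 1 symbol were named. Of 12626 probe sets, 10961 had 1 symbol, 546 several and 1119 none. limma 3.58.1 in R 4.3.3 fitted 1 mean per group over all arrays (lmFit, eBayes with a mean-variance trend), with Benjamini-Hochberg adjustment over 7824 probe sets and two-sided tests. The fit was tested on simulated data.

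Named were all members, RUNX1T1 and, per list and direction, up to 4 called probe sets of largest difference. Likeness to JUP was Pearson's r over 16 arrays. Members and lists were chosen with earlier results of these data known. Alternatives were other floors, filters, scalings, no trend, the replicate block, control cells of 0 h and leaving out each array. Replicate numbers were checked for pairing.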

Additional observations from a re-analysis of the deposited data

Results flagged for a closer look

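The JUP effect differed between 24, 48 and 72 h by a test of the difference itself (F test, adjusted p = 0.0173). The fitted differences, induced minus control, were log2 1.15, 2.20 and 3.23 at these hours. Of the 15 tested member probe sets this was the only one called, and 10.9% of all tested probe sets were. Groups of 2 arrays are too small for a test of single outlying arrays.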

How the results depend on the processing

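The average rise of JUP kept its direction and call under every alternative tried, including 48 and 72 h alone (log2 2.06 to 2.72), as did its rises at 48 and 72 h. The F test for JUP lost its call with no filter on low values (F = 10.79, adjusted p = 0.0673, 0 members called) and with the authors' scale factor undone (F = 4.16, adjusted p = 0.267, 0 members called), and leaving out 1 array gave F = 7.84 to 15.52 and 0 to 1 members called. At 12 h against 0 h, the stricter filter called JUP (log2 -1.15, 1 member called), and leaving out 1 array gave log2 -1.37 to -0.93 and 0 to 1 called. The number of members called on average was 8, became 5 against control cells of 0 h, and lay between 7 and 9 under the other settings and without 1 array. At 48 h it became 3 with no filter and 2 with the scale factor undone, against 5, and 1 to 6 without 1 array. At 72 h it became 3 with the scale factor undone, against 6, and 3 to 8 without 1 array. No called member value changed sign, and 43 values called under neither setting did, 18 of them at 12 h. Replicate numbers showed no clear pairing of the arrays. The correlation of replicate deviations between groups was -0.152 to 0.25, with a median of 0.071 and 7 of 28 pairs of groups over 0.1. The replicate block left 8 members called on average (JUP adjusted p = 1.88e-06) and called WNT10B at 48 h (adjusted p = 0.0288). It gave 2 rises and 1 fall among receptors and secreted inhibitors. Where a called value ended under an alternative and nothing above shows why, the cause was not tested.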
